A study of Sus scrofa with 22 samples.

Results

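Genes that take up, sense and esterify cholesterol were examined in the jejunal mucosa of Ossabaw pigs, a breed used in studies of diet-induced metabolic disease. The set held 8 genes chosen by role and matched by the gene names in the deposited files: NPC1L1 and SCARB1 for uptake, SREBF2, SCAP and INSIG1 for sensing, STARD4 and TMEM97 for movement inside the cell, and SOAT2 for esterification. All 8 were present among 24358 genes in each library, and all 8 passed the filter on low counts that left 13626 genes for testing. Each gene was read by 311 or more unique exon reads in every library, the lowest count being that of SCARB1 in 1 library.

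RNA from 22 pigs, 1 library per pig, was sequenced. Of these, 7 pigs received the Western pattern with atorvastatin (WD+S), 8 received the heart healthy pattern with atorvastatin (HHD+S) and 7 received the heart healthy pattern without the drug (HHD). Butter fat, added cholesterol, sugar and white flour, with little fibre, characterised the Western pattern. The heart healthy pattern drew on canola, soybean and corn oils, whole wheat, oats and a fruit and vegetable mix, with more fibre and little cholesterol. Both supplied 38% of energy as fat for 6 months, after a period of adaptation. Fish oil capsules of 1000 mg were given to both heart healthy groups and not to WD+S, so the diet contrast includes fish oil. Atorvastatin, which inhibits cholesterol synthesis, was dosed at 20 mg per day for 3 months and at 40 mg per day for the next 3 months. Western-fed pigs without the drug were not analysed here, so each comparison with WD+S holds either diet with the drug in both arms (WD+S against HHD+S) or diet and drug together (WD+S against HHD). Boars and gilts were both randomized, and sex is not among the sample labels.

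In the small intestine, sterol from the lumen enters absorptive cells through NPC1L1 at the brush border, is esterified in the endoplasmic reticulum by SOAT2 and leaves in chylomicrons. Cells gauge the sterol in their endoplasmic reticulum membranes through SCAP, which carries the precursor of SREBP-2 (the product of SREBF2) to the Golgi for cleavage when sterol is scarce, and through INSIG1, which holds SCAP back when sterol is plentiful. Cleaved SREBP-2 switches on genes of cholesterol synthesis and uptake, including its own gene and INSIG1.

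Libraries held 15.3 to 31.6 M uniquely placed exon reads in total. The names of the deposited files place 13 libraries in a set 3 and 9 in a set 4, both of which hold all 3 groups. Set 3 holds 3 WD+S, 5 HHD+S and 5 HHD libraries, and set 4 holds 4, 3 and 2, so values within a set rest on few libraries. Of the 22 libraries, 5 carry pig numbers that follow a gap in the numbering (late pig numbers). A library is named by its group and a number. The tissue label was checked against markers. The enterocyte genes VIL1, ANPEP, FABP2 and SI had median levels of 1387, 7589, 6568 and 6644 CPM (counts scaled to a common library total). None of these fell below 980.9 CPM in any library. The other enterocyte markers tested, of 10 in all, had minima between 60.2 and 1486 CPM. ALPI and LCT, also on that list, were not found by name. The 4 proximal jejunal markers had medians between 13.7 CPM (ONECUT2) and 330.5 CPM. FABP6, an ileal bile acid carrier, had a median of 0.204 CPM and reached 26.1 CPM in WD+S 1. SLC10A2, the other ileal marker tested, had a median of 1.304 CPM. It reached 7.97 CPM in the same library and 7.76 CPM in HHD. Among WD+S libraries, WD+S 1 was also the lowest in SREBF2 (67.4 CPM) and STARD4 (63.7 CPM). Whether it was sampled farther along the intestine was not tested, and it was kept in all main comparisons. Levels are given as CPM after trimmed mean of M values (TMM) scaling, which corrects library totals for composition. They are compared between libraries for 1 gene and not between genes, because the files give no exon lengths.

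None of the 8 genes passed an adjusted p of 0.05 in any of the 3 comparisons. The edgeR quasi-likelihood adjusted p was 0.9995 for every member in WD+S against HHD+S, 0.9993 in HHD+S against HHD and 0.9997 in WD+S against HHD. Over all genes tested, 0% passed in each of the first 2 comparisons and 0.00734% in WD+S against HHD. At an unadjusted p under 0.05 again no member passed, against 2.92% of all genes in WD+S against HHD+S, 1.81% in HHD+S against HHD and 3.41% in WD+S against HHD, which were 398, 247 and 465 genes. DESeq2 called 4, 1 and 2 genes in the 3 comparisons (0.0294%, 0.00735% and 0.0147% of those it tested) and limma called 1, 0 and 1 (0.00734%, 0% and 0.00734%), with no member among them. Members had positive log2 fold changes in 5, 5 and 6 of 8 cases (47.1%, 52.6% and 49.0% of all genes), with medians of 0.05, 0.03 and 0.11 against -0.01, 0.01 and -0.0041 over all genes. The comparisons share libraries pairwise and so are not independent of each other. Below, counts of libraries beyond the median or range of another group were made for the 8 genes only. Their share over all genes is not known.

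**Figure D1:**
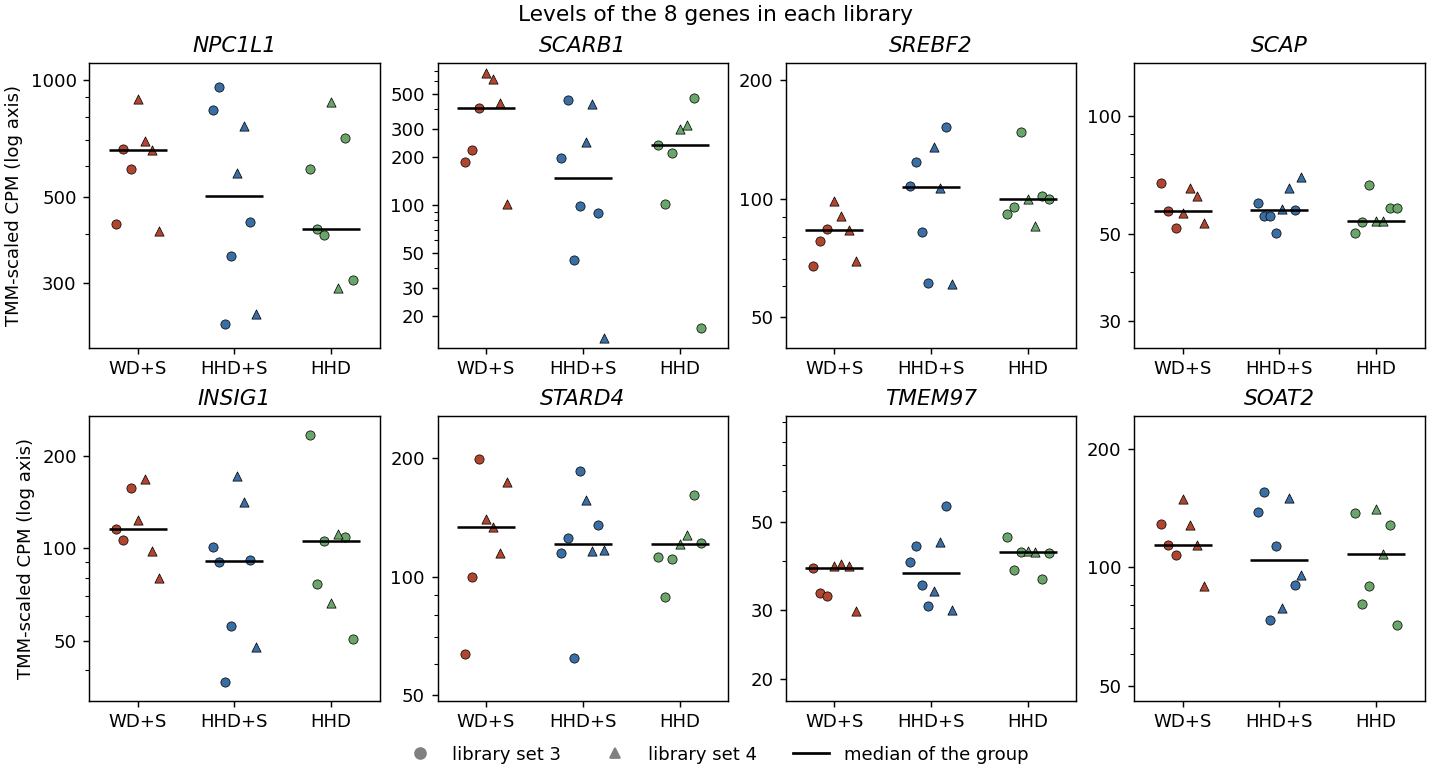
TMM-scaled CPM of the 8 genes (y axis, log scale, a range of its own in each panel) in each library of the WD+S, HHD+S and HHD groups; circles and triangles mark library sets 3 and 4, and bars mark group medians. The groups overlap for all 8 genes, SCARB1 spans 14.5 to 680.1 CPM, and all 7 WD+S libraries lie below the HHD median for SREBF2 and TMEM97.

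NPC1L1, the brush border transporter through which dietary and biliary cholesterol enters the enterocyte and the target of ezetimibe, lies on chromosome 18 (50726854 to 50757676, RefSeq span on Sscrofa11.1). Its level was 408.5 CPM in the lowest WD+S library, 660.0 CPM at the median and 893.0 CPM in the highest. In HHD+S the lowest, median and highest levels were 235.0, 502.2 and 958.4 CPM, and in HHD they were 290.3, 413.1 and 877.9 CPM. The ranges overlapped, and the WD+S range lay inside that of HHD+S, with 3 HHD+S libraries and 3 HHD libraries below every WD+S library. The log2 fold change was 0.14 for WD+S over HHD+S (SE 0.309, 95% interval -0.50 to 0.78), 0.10 for HHD+S over HHD (SE 0.302) and 0.24 for WD+S over HHD (SE 0.321). Without library HHD+S 8 the first of these was -0.01. The last was 0.091 without HHD 5 and 0.49 without HHD 4.

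SCARB1 encodes SR-B1, a receptor for high density lipoprotein that is also present on the apical face of enterocytes (chromosome 14, 28301421 to 28393568). WD+S libraries had 101.4 CPM at the lowest, 408.7 CPM at the median and 680.1 CPM at the highest. HHD+S libraries had 14.5, 148.0 and 457.7 CPM in the same order, and HHD libraries had 16.7, 239.9 and 472.2 CPM. The lowest values of all were those of HHD+S 8 (14.5 CPM), HHD 7 (16.7 CPM) and HHD+S 3 (45.2 CPM), and the highest were those of WD+S 4 (680.1 CPM) and WD+S 5 (618.3 CPM). No WD+S library was among the lowest 3, and 4 of 8 HHD+S libraries lay below every WD+S library. Even so, the log2 fold change of 0.80 for WD+S over HHD+S had an SE of 0.638 and an interval of -0.53 to 2.13. It was -0.30 (SE 0.623, -1.60 to 1.00) for HHD+S over HHD and 0.50 (SE 0.667, -0.90 to 1.89) for WD+S over HHD. The last of these was 0.32 without HHD 7 and 0.81 without HHD 6. The value for HHD+S over HHD took the other sign, at 0.12, without the 5 libraries with late pig numbers. Those 5 include HHD+S 8 and HHD 7, but also HHD 6, the highest HHD library (472.2 CPM).

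The spread of SCARB1 between libraries, 1 per pig, was wide for this tissue. After group and library set were fitted, its residual SD was 1.51 on the log2 scale, above that of 99.6% of the 13626 genes, whose median was 0.298. Next among the 8 genes came INSIG1 at 0.666 (above 92.7% of genes) and NPC1L1 at 0.644 (92.0%). SCAP, at 0.142, varied less than most genes and lay above 5.49% of them, and TMEM97, at 0.221, lay above 27.4%. SREBF2, SOAT2 and STARD4 were between, at 0.364, 0.369 and 0.439. Among genes of related role that are not in the set, SREBF1, which encodes the SREBP-1 factors of fatty acid synthesis, came closest to SCARB1 with a residual SD of 1.01 (98.3%).

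SREBF2 encodes the transcription factor that drives sterol synthesis and low density lipoprotein uptake (chromosome 5, 6719484 to 6784724). Its level was 67.4 CPM at the lowest, 83.1 CPM at the median and 98.5 CPM at the highest in WD+S. In HHD+S it was 60.6, 107.0 and 152.4 CPM, and in HHD it was 85.3, 99.6 and 147.9 CPM. The WD+S libraries sat low and close together. None of the 7 exceeded the median of HHD+S or that of HHD, and 5 of 7 lay below every HHD library, while 2 of 8 HHD+S libraries were lower still. Such counts were not made over all genes. The unadjusted edgeR p of WD+S was 0.0706 against HHD+S and 0.0962 against HHD. The coefficient of variation was 13.5% in WD+S, 32.4% in HHD+S and 20.0% in HHD. It was also lowest in WD+S for NPC1L1, SCARB1, INSIG1 and SOAT2, but not for SCAP, STARD4 or TMEM97. The log2 fold change was -0.34 for WD+S over HHD+S (SE 0.179, interval -0.71 to 0.03) and -0.33 for WD+S over HHD (SE 0.188, -0.72 to 0.06). Between HHD+S and HHD it was 0.01 (SE 0.176, -0.35 to 0.38). Both values for WD+S were larger in library set 3 (-0.45 over HHD+S and -0.49 over HHD) than in set 4 (-0.24 and -0.11), and neither changed sign in 12 alternative fits.

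SCAP, the sterol-sensing escort of the SREBP precursors (chromosome 13, 30253262 to 30320625), was the steadiest of the 8. It stood at 51.8, 57.4 and 67.3 CPM at the lowest, median and highest in WD+S, 50.2, 57.6 and 69.7 CPM in HHD+S and 50.3, 54.0 and 66.5 CPM in HHD. These ranges nearly coincided. All 3 log2 fold changes were within 0.06 of 0, and their 95% intervals reached from -0.18 to 0.17 for WD+S over HHD+S, from -0.12 to 0.23 for HHD+S over HHD and from -0.13 to 0.23 for WD+S over HHD.

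INSIG1, which retains SCAP in the endoplasmic reticulum and whose own transcription follows SREBP activity, lies on chromosome 18 (2885494 to 2898758). WD+S libraries ranged between 80.01 and 169.1 CPM with a median of 116.0 CPM. HHD+S libraries ranged between 36.6 and 172.7 CPM around a median of 90.8 CPM, and HHD libraries between 50.8 and 235.3 CPM around 105.8 CPM. Its lowest values were in HHD+S 3, HHD+S 8 and HHD 7, the same 3 libraries as for SCARB1, and 6 of 7 WD+S libraries exceeded the HHD+S median. The log2 fold change was 0.39 for WD+S over HHD+S (SE 0.320, -0.27 to 1.06), -0.26 for HHD+S over HHD (SE 0.327) and 0.13 for WD+S over HHD (SE 0.342). The first of these was 0.77 in set 3 and -0.04 in set 4 (SE 0.414), and no test compared the sets. Leaving out HHD 1, the highest library, moved the middle value to 0.04 and the last to 0.44.

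STARD4 carries cholesterol between membranes in the cytosol and to the endoplasmic reticulum (chromosome 2, 116235821 to 116257143). The lowest, median and highest levels were 63.7, 133.9 and 199.3 CPM in WD+S, 62.1, 120.8 and 185.8 CPM in HHD+S and 88.6, 120.8 and 161.2 CPM in HHD. Both ends of its range were held by WD+S or HHD+S libraries, and the groups overlapped. Its log2 fold changes were 0.04 (SE 0.211), 0.06 (SE 0.208) and 0.10 (SE 0.221) for WD+S over HHD+S, HHD+S over HHD and WD+S over HHD. Leaving out WD+S 3 turned the first to -0.15 and the last to -0.12. Its RefSeq span shares 14 bases with the long non-coding RNA gene LOC102158757.

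TMEM97, the sigma-2 receptor, is an endoplasmic reticulum protein that binds NPC1, the exporter of cholesterol from lysosomes (chromosome 12, 44603764 to 44609935). WD+S libraries had 29.8 CPM at the lowest, 38.4 CPM at the median and 39.3 CPM at the highest, HHD+S libraries 29.9, 37.2 and 55.1 CPM, and HHD libraries 35.9, 42.1 and 45.9 CPM. As with SREBF2, no WD+S library exceeded the HHD median, but 4 of 7 exceeded the HHD+S median. The log2 fold change was -0.12 for WD+S over HHD+S (SE 0.118), -0.08 for HHD+S over HHD (SE 0.115) and -0.19 for WD+S over HHD (SE 0.122, -0.45 to 0.06). The RefSeq spans of TMEM97 and IFT20 share 350 bases. The labels do not state that strand was used in counting, so reads from the stretches that TMEM97 and STARD4 share with their neighbours cannot be told apart.

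SOAT2, the acyl-CoA:cholesterol acyltransferase of enterocytes and hepatocytes (chromosome 5, 18358941 to 18371262), had 89.6, 114.0 and 148.9 CPM at the lowest, median and highest in WD+S. The corresponding levels were 73.3, 104.4 and 155.2 CPM in HHD+S and 71.5, 107.8 and 140.6 CPM in HHD. The ranges overlapped. Of 8 HHD+S libraries, 2 lay above every WD+S library and 2 below, and 2 of 7 HHD libraries lay below every WD+S library. Log2 fold changes were 0.07 (SE 0.181, -0.30 to 0.45) for WD+S over HHD+S, 0.05 (SE 0.178, -0.32 to 0.42) for HHD+S over HHD and 0.12 (SE 0.188, -0.27 to 0.51) for WD+S over HHD. SOAT1, the widely expressed isoenzyme, ranged between 6.16 and 13.3 CPM over all libraries.

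**Figure D2:**
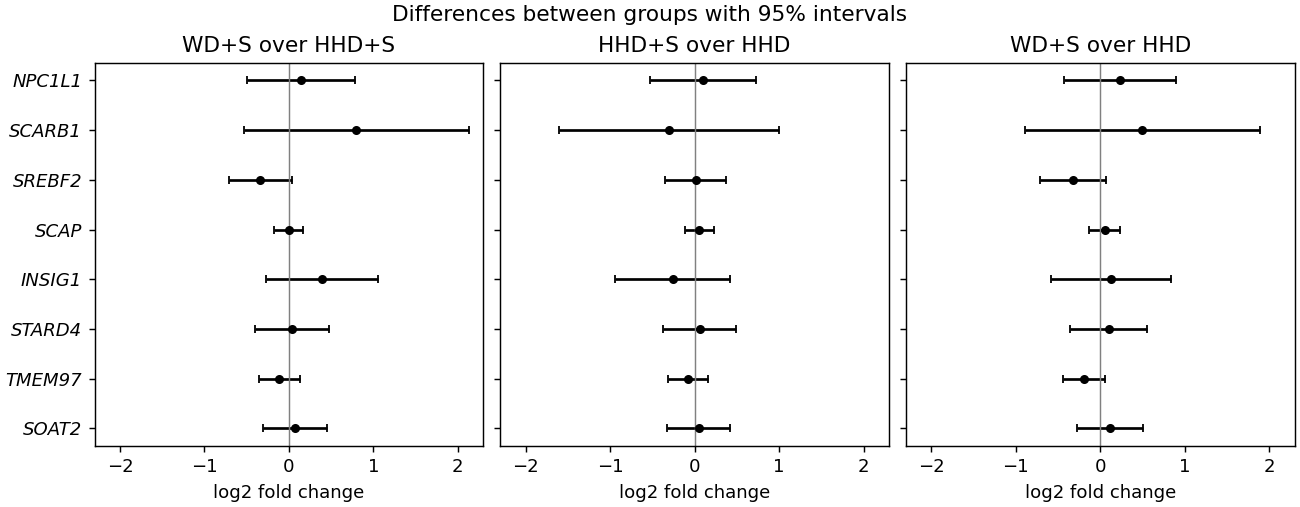
Log2 fold changes of the 8 genes (points) with 95% intervals (bars) from the edgeR fit, for WD+S over HHD+S, HHD+S over HHD and WD+S over HHD. Every interval includes 0; that of SCARB1 is the widest of each panel (-0.53 to 2.13 for WD+S over HHD+S) and that of SCAP the narrowest (-0.18 to 0.17 there).

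The genes were then compared with each other across the 22 pigs. Pearson's r and Spearman's rho of log2 CPM were computed for all 28 pairs, with two-sided permutation p-values from 100000 resamples adjusted over the pairs by the Benjamini-Hochberg method. Of these pairs, 5 passed an adjusted p of 0.05 by both measures, and all 5 were positive. The share that passes among all gene pairs was not computed, so this count is not shown to be particular to the set. Genes outside the set reached higher r, up to 0.95 with NPC1L1, 0.92 with SCARB1 and 0.87 with SOAT2. NPC1L1, SCARB1 and SOAT2 passed with each other, INSIG1 passed with SCARB1 alone, and SREBF2 passed with TMEM97. SCAP and STARD4 passed with no other member, their largest relation being that with each other (r = -0.35, -0.45 in set 3 and -0.55 in set 4, permutation adjusted p = 0.348).

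NPC1L1 and SCARB1 had r = 0.79 (permutation p = 2e-05, adjusted p = 0.00056) and rho = 0.75 (permutation p = 0.00011, adjusted p = 0.00154). Without HHD+S 3 and HHD+S 8, the libraries farthest from the NPC1L1 median, r was 0.70. It was 0.80 within library set 3 (n = 13) and 0.76 within set 4 (n = 9), and 0.78 for the residuals after group and set. NPC1L1 and SOAT2 had r = 0.76 (permutation p = 6e-05, adjusted p = 0.00084) and rho = 0.82 (permutation p = 1e-05, the smallest these resamples can give, adjusted p = 0.00028). Here r was 0.73 without the same 2 libraries, 0.83 in set 3, 0.66 in set 4 and 0.75 for the residuals. Pigs with more NPC1L1 mRNA had more SCARB1 and SOAT2 mRNA both over the whole series and after the group means were taken out.

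SCARB1 and INSIG1 had r = 0.74 (permutation p = 0.0001, adjusted p = 0.000933) and rho = 0.65 (permutation p = 0.00136, adjusted p = 0.00862). The value was 0.65 without HHD 7 and HHD+S 8, 0.73 in set 3, 0.76 in set 4 and 0.70 for the residuals. For SCARB1 and SOAT2, r was 0.70 (permutation p = 0.00025, adjusted p = 0.00175) and rho was 0.64 (permutation p = 0.00154, adjusted p = 0.00862). It stayed at 0.70 without HHD 7 and HHD+S 8, and was 0.79 in set 3, 0.57 in set 4 and 0.69 for the residuals. NPC1L1 and INSIG1 passed by r alone, with r = 0.57 (permutation p = 0.00606, adjusted p = 0.0283). Their rho was 0.43 (permutation p = 0.0469, adjusted p = 0.188). The value of r was 0.34 without HHD+S 3 and HHD+S 8, 0.64 in set 3, 0.46 in set 4 and 0.54 for the residuals. INSIG1 and SOAT2 passed by neither measure (r = 0.46, permutation adjusted p = 0.127; rho = 0.37, permutation adjusted p = 0.243), and r was 0.29 without HHD 1 and HHD+S 3 and 0.13 in set 4.

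SREBF2 and TMEM97 had r = 0.68 (permutation p = 0.00049, adjusted p = 0.00274) and rho = 0.68 (permutation p = 0.00077, adjusted p = 0.00719). The value of r was 0.57 without HHD 3 and HHD+S 7, 0.77 in set 3, 0.49 in set 4 and 0.63 for the residuals. Without the late pig numbers (n = 17) r was 0.45. For the other pairs that passed by both measures, r was between 0.65 and 0.73 in those 17 libraries. SREBF2 mRNA had r = 0.36 with NPC1L1, 0.31 with INSIG1 and -0.03 with SOAT2, none of which passed.

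**Figure D3:**
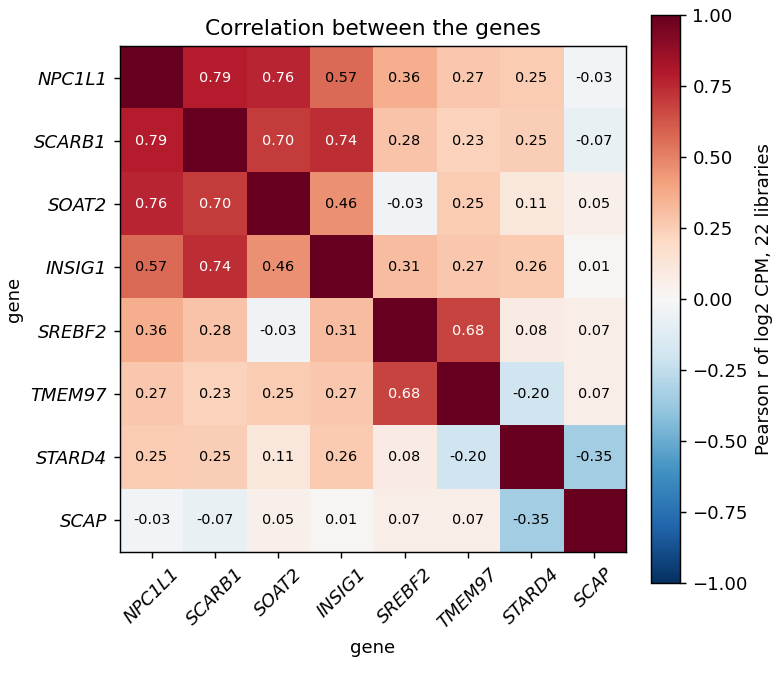
Pearson's r of log2 CPM between each pair of the 8 genes over 22 libraries, printed in each cell and coloured on a scale of -1 to 1. NPC1L1, SCARB1 and SOAT2 are related to each other (r between 0.70 and 0.79), INSIG1 to SCARB1 (0.74) and SREBF2 to TMEM97 (0.68), while SCAP and STARD4 are lowest with each other (-0.35) and passed with no gene.

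The other genes of the pathway were described by 5 lists, none of which holds a member of the set. Sterol synthesis had 20 genes tested, of which 1 had a positive and 19 a negative log2 fold change for WD+S over HHD+S, with a median of -0.21 against -0.01 over all genes. Against HHD, 16 of 20 were negative (median -0.26), and between HHD+S and HHD 10 were positive and 10 negative (median 0.00). No gene of the list passed the adjusted threshold in any comparison. SQLE, the squalene epoxidase, had the smallest p of the list in both comparisons with WD+S. Its mean ± SD was 4.49 ± 2.28 CPM in 7 WD+S pigs, 12.2 ± 6.03 CPM in 8 HHD+S pigs and 11.4 ± 3.27 CPM in 7 HHD pigs, with log2 fold changes of -1.38 (edgeR adjusted p = 0.611) and -1.28 (edgeR adjusted p = 0.9997). MSMO1, NSDHL and FDPS, the other synthesis genes that the naming rule picked, did not pass either, the log2 fold change of MSMO1 being -0.49 for WD+S over HHD+S and that of NSDHL -0.39 for WD+S over HHD.

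Of the 8 efflux and liver X receptor genes, 8 had positive log2 fold changes for WD+S over HHD+S (median 0.25), 3 for HHD+S over HHD (median -0.11) and 6 for WD+S over HHD (median 0.13). ABCG1, a cholesterol exporter, was the 1 gene of the whole table to pass, in WD+S against HHD. With a mean ± SD of 31.9 ± 5.67 CPM in 7 WD+S pigs and 17.8 ± 2.02 CPM in 7 HHD pigs, it had an edgeR adjusted p of 0.0410 and a log2 fold change of 0.84 (SE 0.135). Of 22 fits that each left out 1 library, 5 called at least 1 gene in that comparison (those without WD+S 3, WD+S 7, HHD+S 4, HHD+S 7 or HHD+S 8), and the others called 0. For WD+S over HHD+S, with the drug in both arms, ABCG1 had a log2 fold change of 0.74 (SE 0.128, edgeR adjusted p = 0.0641). MYLIP, ABCA1, LPCAT3 and ABCG5 did not pass. The 10 tested genes of SREBP control, which act on the same complex as SCAP and INSIG1, had medians of -0.02, 0.08 and 0.06 in the 3 comparisons, with none passing. SREBF1 had a mean ± SD of 222.5 ± 75.0 CPM in 7 WD+S pigs, 121.7 ± 95.5 CPM in 8 HHD+S pigs and 122.9 ± 48.3 CPM in 7 HHD pigs, with log2 fold changes of 0.89 (SE 0.456) for WD+S over HHD+S and 0.88 (SE 0.475) for WD+S over HHD. INSIG2, the second retention protein, differed little, at 5.92 ± 1.21 CPM in WD+S, 6.16 ± 1.16 CPM in HHD+S and 5.37 ± 0.757 CPM in HHD (SD, n = 7, 8 and 7). No gene passed among the 19 of uptake and intracellular transport (medians 0.05, 0.01 and 0.08) or the 8 of esterification and export in lipoproteins (medians -0.01, -0.12 and -0.06).

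Each gene of the set was also related to a score per library for each of these lists and for 12 lists of cell type markers, the score being the mean log2 CPM of the list's tested genes after centring each gene. Of 136 such relations, 17 passed an adjusted p of 0.05 by both r and rho (two-sided permutation p-values, 100000 resamples, n = 22, adjusted over the 136). The share that passes for genes outside the set was not computed. SREBF2 stood with sterol synthesis, with r = 0.78 (permutation adjusted p = 0.000816) and rho = 0.82 (permutation adjusted p = 0.00136). The value of r was 0.70 without HHD 3 and HHD+S 7, 0.79 in set 3, 0.75 in set 4 and 0.73 for the residuals after group and set. TMEM97 stood with the same list at r = 0.65 (permutation adjusted p = 0.0110). This was 0.56 without WD+S 7 and HHD+S 7, 0.74 in set 3, 0.43 in set 4 and 0.60 for the residuals. Without the late pig numbers, r with that list was 0.48 for TMEM97 and 0.71 for SREBF2. INSIG1 had r = 0.32, NPC1L1 0.28, SCARB1 0.15 and SCAP -0.22 with that list, none of which passed. The lowest sterol synthesis score was that of WD+S 1 (-0.51), the library highest in the ileal markers.

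**Figure D4:**
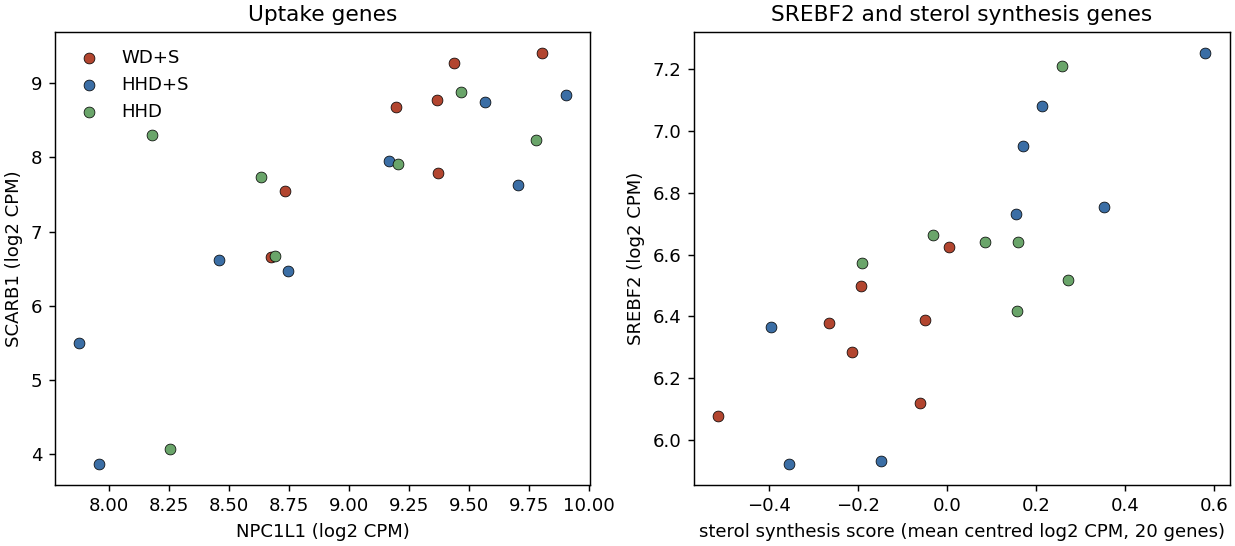
Left, log2 CPM of SCARB1 against that of NPC1L1 in the 22 libraries; right, log2 CPM of SREBF2 against the sterol synthesis score (mean log2 CPM of 20 genes, each centred on 0). Both clouds slope upward (r = 0.79 and r = 0.78), and none of the 7 WD+S libraries is above 98.5 CPM for SREBF2 or below 101.4 CPM for SCARB1.

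NPC1L1, SCARB1 and SOAT2 stood instead with the list of SREBP control (r = 0.87, 0.80 and 0.78; permutation adjusted p = 0.000453, 0.000816 and 0.000453). That list holds SREBF1, whose own r was 0.81 with NPC1L1, 0.82 with SCARB1 and 0.59 with SOAT2, against 0.28 with SREBF2. The score does not scale genes to a common spread, and SREBF1 had a residual SD of 1.01 against a median of 0.298 over all genes. SREBF1 thus weighs heavily in it. The score was not computed without SREBF1, so a relation with the other genes of the list is not shown. NPC1L1, SCARB1 and SOAT2 all passed with sterol efflux as well, at r = 0.76, 0.60 and 0.74 (permutation adjusted p = 0.00113, 0.0273 and 0.00187). With uptake and intracellular transport, NPC1L1 (r = 0.78, permutation adjusted p = 0.000453) and SCARB1 (0.73, 0.00326) passed. With esterification and export in lipoproteins, NPC1L1 (0.75, 0.00155) and SOAT2 (0.63, 0.0110) passed. The relations of these genes were thus not particular to 1 list. NPC1L1 passed with the enterocyte markers too, at r = 0.69 (permutation adjusted p = 0.00346), with 0.49 left without HHD+S 3 and HHD+S 8, 0.72 in set 3 and 0.75 in set 4. The enterocyte score had r = 0.50 with SCARB1, 0.55 with SOAT2 and 0.48 with INSIG1, none of which passed by both measures. HHD+S 3 and HHD+S 8, the libraries lowest in NPC1L1, had the 2 lowest enterocyte scores (-0.97 and -0.58), while HHD 7, low in SCARB1, stood at -0.23. The summed level of the 10 enterocyte markers tested, of 12 listed, was 25510 to 46117 CPM in WD+S, 19292 to 42842 CPM in HHD+S and 26021 to 39390 CPM in HHD. SOAT2 ran opposite to the T cell markers (r = -0.68, permutation adjusted p = 0.00567), at -0.68 in set 3 and -0.72 in set 4. The 5 T cell markers summed to between 178 and 381 CPM in WD+S, 169 and 449 CPM in HHD+S and 246 and 373 CPM in HHD. In bulk mucosa, fewer cells of a type and less RNA per cell cannot be told apart, and the part of cell make-up in these relations was not tested.

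STARD4 was the member that moved against stromal markers. Its r was -0.72 with the endothelial list (permutation adjusted p = 0.00287), -0.59 with the fibroblast list (permutation adjusted p = 0.0273) and 0.57 with the proximal jejunal list (permutation adjusted p = 0.0312). The endothelial relation was -0.83 in set 3 and -0.05 in set 4, so it did not hold within both library sets. The fibroblast relation was -0.69 and -0.15, and the proximal jejunal one 0.77 and -0.22. The summed level of the 4 endothelial markers was 86.7 to 272.9 CPM in WD+S, 58.3 to 326.4 CPM in HHD+S and 111.0 to 339.2 CPM in HHD, above 0 in every library.

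**Figure D5:**
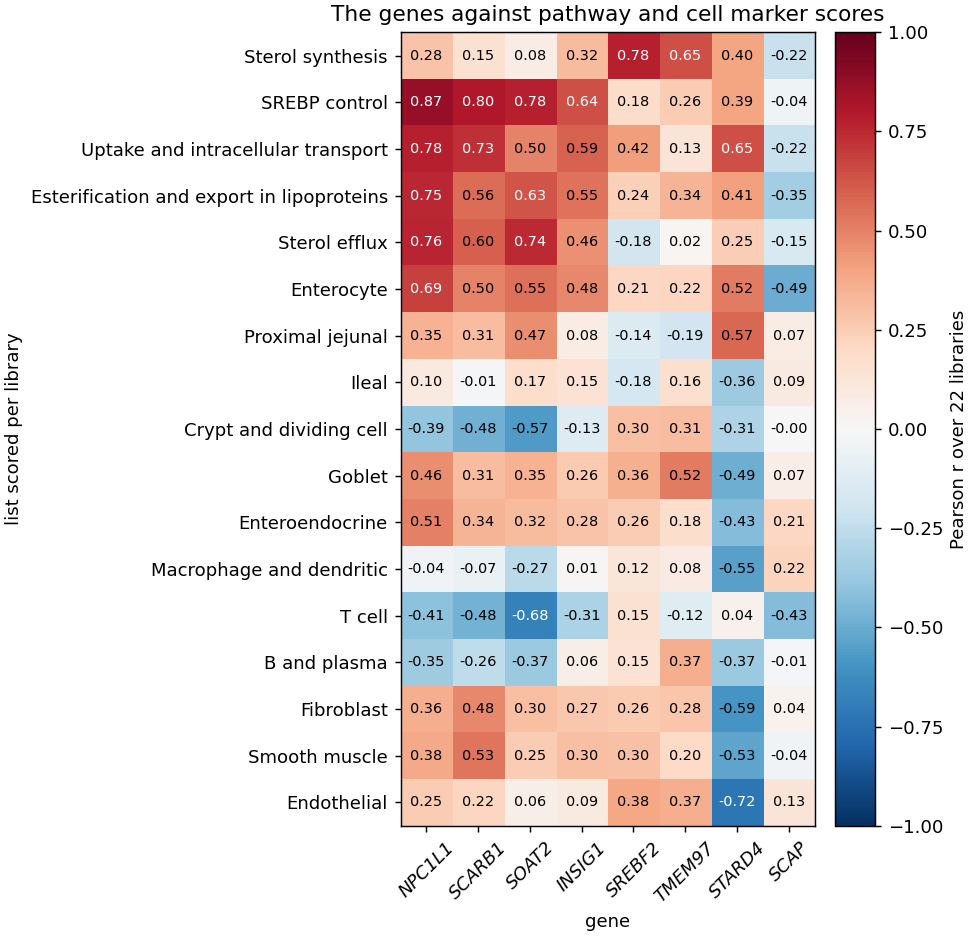
Pearson's r over 22 libraries between the log2 CPM of each of the 8 genes (columns) and the score of each of 17 pathway and marker lists (rows), printed in each cell. SREBF2 and TMEM97 are highest with sterol synthesis (0.78 and 0.65), NPC1L1, SCARB1 and SOAT2 with SREBP control (0.87, 0.80 and 0.78), and STARD4 is negative with the endothelial list (-0.72).

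Among 11031 named genes whose mean log2 CPM reached 1, the 3 most like each member by Pearson's r across the 22 libraries were listed as a description. NPC1L1 was most like MGAM, a brush border maltase-glucoamylase (r = 0.95), SLC6A19, the brush border neutral amino acid transporter (0.95), and SLC44A4 (0.95), and each of these stayed at 0.93 or above within both library sets. SCARB1 was most like GLMP (0.92), ACE, a brush border peptidase of the jejunum (0.90), and BCO1, which cleaves dietary carotene (0.89). Genes most like SREBF2 included AP2A1 (0.73) and TWNK (0.73). For INSIG1 they were HEXA (0.84), CREB3L3 (0.81) and CUTA (0.78), and for SOAT2 TRPM4 (0.87), PRKCD (0.85) and OGDH (0.85). STARD4 was most like SELENOI (0.93), which was 0.96 in set 3 and 0.59 in set 4, HBS1L (0.92) and INPP5F (0.89). SCAP was most like THRA (0.82), PBXIP1 (0.81) and CCDC22 (0.80), and TMEM97 like TRAF3IP2 (0.79), LARS2 (0.78) and ALG3 (0.77).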

How the data were processed

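RNA of jejunal mucosa was sequenced from 22 pigs. Each library has 1 deposited file of raw counts, headed as unique exon reads, with 1 row per gene. Per the labels' protocols, the authors processed the reads in CLC Bio Genomic Workbench against the annotated Sus scrofa 11.1 genome. Its version, the mapping settings and any use of strand are not stated in the labels. A unique count leaves out reads with more than 1 equally good place. Depth was 15.3 to 31.6 M counts, and every one of 231 library pairs differed by more than sampling noise (smallest reduced chi-square 25.2).

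Grouping used the diet labels. An abbreviation in some sample titles stands in the series text for Western feeding without the drug, whereas the diet labels of those samples name a statin, and the labels were followed. Each library carries its own pig number. The files name 17332 of 24358 genes, a symbol table named 1073 more, and 5953 have no name. Coordinates are RefSeq gene spans of Sscrofa11.1, matched by symbol for all 8 genes.

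Genes were filtered with filterByExpr (minimum count 10), which left 13626, and scaled by TMM. A robust quasi-likelihood model in edgeR 4.0.16 (R 4.3.3) with the 3 groups and library set as terms left 18 residual degrees of freedom, with a common biological coefficient of variation of 25.9%. P values were adjusted by Benjamini-Hochberg over all genes tested. The model code was tested on simulated data. Log2 CPM used a prior count of 2. Correlations, permutation tests and scores were computed in Python 3.11.15 with NumPy 2.4.6 and SciPy 1.17.1. Alternatives were RLE scaling, total counts, DESeq2 1.42.0, limma 3.58.1 with quality weights, other filters (none, or a minimum count of 50), other terms, each library set alone, the groups of a comparison alone, and leaving out each library or the late pig numbers. The last of these and the relations with list scores were added after seeing the data.

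The 8 genes, the lists and the tests were chosen with earlier results of these data known, so no list or pattern is independent support. Named genes were the 8, 6 genes of related role, the 2 genes of smallest unadjusted p per list and comparison, every list gene with an adjusted p under 0.05, and the 3 most alike genes of each member. Some genes that this rule names are not reported here. A planned count of promoter motifs and levels per exon length were not run.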

Additional observations from a re-analysis of the deposited data

Results flagged for a closer look

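Each gene was examined in each group for a library far from the others, by the gap of the highest or lowest library to its nearest neighbour as a share of the group's range (Dixon's criterion). Of 24 groups, 2 were picked out. For normally distributed values, chance picks out about 1 in 20. The criterion was applied to CPM and not to log2 CPM, so that rate may not hold here. SREBF2 stood at 147.9 CPM in HHD 3, the highest of 7 HHD libraries, where the next was at 101 CPM. INSIG1 stood at 235.3 CPM in HHD 1, the highest of the HHD libraries, where the next was at 112 CPM. Without HHD 1, the log2 fold change of INSIG1 was 0.04 for HHD+S over HHD and 0.44 for WD+S over HHD. Without HHD 3, that of SREBF2 was 0.12 for HHD+S over HHD. Neither gene passed the threshold in these fits.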

How the results depend on the processing

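No member was called in any of 12 alternative fits or 22 leave-one-out fits, the smallest adjusted p being 0.541 (SREBF2 in WD+S against HHD, limma). Of 288 member values in the alternatives, 25 took the other sign, and of 528 in the leave-one-out fits, 35 did. The cause was not tested.

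The log2 fold changes that took the other sign were these. For WD+S over HHD+S, SCAP was 0.00402 with RLE scaling, 0.0046 with DESeq2, 0.011 with limma, 0.0068 without the library set term, 0.0036 with a term for late pig numbers, 0.093 in set 3 and 0.071 without the late pig numbers. STARD4 was -0.012 with total counts, -0.14 with limma, -0.031 in set 3 and -0.035 without the late pig numbers. NPC1L1 was -0.026 with limma. SOAT2 was -0.064 with limma. INSIG1 was -0.037 in set 4. TMEM97 was 0.029 in set 4. For HHD+S over HHD, SCARB1 was 0.24 with limma and 0.12 without the late pig numbers. SREBF2 was -0.034 in set 3 and -0.029 without the late pig numbers. SCAP was -0.053 in set 3. NPC1L1 was -0.14 in set 4. INSIG1 was 0.44 in set 4. SOAT2 was -0.20 in set 4. For WD+S over HHD, STARD4 was -0.033 with limma. SOAT2 was -0.045 in set 4.

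Genes called over the whole table in WD+S against HHD+S (0 as reported) were 4 with DESeq2, 1 with limma, 2 without the library set term, 2 with a term for late pig numbers, 2 without the late pig numbers and 0 to 2 in leave-one-out fits (2 without WD+S 7 and 1 without WD+S 3, HHD 7 or HHD+S 8). In HHD+S against HHD they were 1 with DESeq2 and 0 in every leave-one-out fit. In WD+S against HHD (1 as reported) they were 0 with total counts, 2 with DESeq2, 2 with a term for late pig numbers, 0 in set 3, 0 in set 4 and 0 to 1 in leave-one-out fits.

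Leaving out each library in turn gave ranges that include the other sign for WD+S over HHD+S NPC1L1 -0.0098 to 0.31, SCAP -0.052 to 0.044, SOAT2 -0.012 to 0.17 and STARD4 -0.15 to 0.18. They also did so for HHD+S over HHD INSIG1 -0.42 to 0.042, NPC1L1 -0.10 to 0.30, SCARB1 -0.78 to 0.048, SOAT2 -0.0599 to 0.12, SREBF2 -0.097 to 0.12 and STARD4 -0.061 to 0.17, and for WD+S over HHD INSIG1 -0.013 to 0.44, SCAP -0.00074 to 0.096 and STARD4 -0.12 to 0.25. The other member values kept their sign in these fits. Their ranges were, for WD+S over HHD+S, SCARB1 0.57 to 1.19, SREBF2 -0.45 to -0.24, INSIG1 0.28 to 0.60 and TMEM97 -0.18 to -0.037. For HHD+S over HHD, SCAP ranged over 0.024 to 0.10 and TMEM97 over -0.17 to -0.032. For WD+S over HHD, NPC1L1 ranged over 0.091 to 0.49, SCARB1 over 0.32 to 0.81, SREBF2 over -0.38 to -0.23, TMEM97 over -0.22 to -0.15 and SOAT2 over 0.049 to 0.21.

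No paired analysis was possible because the labels give the groups no shared replicate numbers. Another count column was planned as an alternative and not run, since each file holds 1 count column. Each of the 8 genes had at least 311 reads per library. The share of counting error in the spread between libraries was not computed. With 1 library per pig, differences between pigs, sampling sites and library preparations cannot be told apart in that spread. With it, the interval of SCARB1 reached -0.53 to 2.13 for WD+S over HHD+S.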
